A study of Mus musculus with 19 samples.

Results

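The p53 target genes described here are 10 mouse genes that the transcription factor p53 is known to switch on: Cdkn1a, Plk2, Ccng1, Bax, Bbc3, Pmaip1, Phlda3, Mdm2, Trp53inp1 and Sesn2. They were chosen by name and were found by Entrez Gene ID, 10 of 10 among the 19287 entries of a kidney expression table. All 10 passed the filter on low values (at least 1 FPKM in at least 4 libraries), and their lowest value in any library was 2.15 FPKM. FPKM are fragments scaled by gene length and by library, so levels can be set side by side between genes. The table holds 19 RNA-seq libraries of whole kidney from male C57BL/6 mice, an inbred strain, in 4 groups. The IRLacz group (n = 4) had Lactobacillus casei Zhang by oral gavage for 4 weeks and then ischemia-reperfusion, in which the blood flow to the kidney is stopped and restored. The IRLac group (n = 5) had the same injury after 4 weeks of gavage with the other bacterium of the study. This was taken to be Lactobacillus acidophilus because only this one is left for that label. The IR group (n = 5) had the injury, and the sham group (n = 5) is labelled sham, without that injury; no gavage is named for either. Kidneys were taken on day 5 after injury. The labels do not say that each library is its own mouse, so a p-value here measures the spread between libraries, which may be technical. The sources used here do not give the age of the mice or the number of kidneys per library.

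The p53 protein is held low in unstressed cells by the ubiquitin ligase Mdm2, itself a p53 target, which forms a feedback loop. DNA damage and other stress release p53, which then turns on genes that stop the cell cycle, genes that open the mitochondrial route to apoptosis, and genes that adjust growth signals and metabolism. In the kidney, p53 in proximal tubule cells is known to be activated by ischemia, and p21, the product of Cdkn1a, is known for its part in tubule cell arrest and survival after such injury. Because p53 is controlled mainly as a protein, the level of Trp53 mRNA is not a measure of its activity.

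Levels were read for 9 lists of markers for kidney cell types, immune cells and tubular injury. No marker found in the table was at 0 in every library, and Trac was not found. This condition is too loose to check the tissue label. FPKM totals lay between 545590 and 584798 per library, and read depth is unknown. IRLacz replicate 1 had the lowest mean correlation with its own group (r = 0.9712 over genes on the log2 scale), and IRLac replicate 3 the second lowest (0.976). IRLacz replicate 1 was the lowest of its group for 9 of the 10 p53 target genes and the highest for Ccng1. IRLac replicate 3 was the lowest of its group for 8 of the 10, and IRLac replicate 1 the highest for 8 of the 10. For some results that rest on IRLacz replicate 1 or IRLac replicate 3, values are given below with and without them. These libraries also differed in tissue markers. The summed level of 12 proximal tubule markers was 29102 FPKM in IRLacz replicate 1 and 23954 FPKM in IRLac replicate 3, and lay between 6302 and 20178 FPKM in the other 12 libraries of injured kidneys. The single gene Kap gave 23213 FPKM of the sum in IRLacz replicate 1 and 18933 FPKM in IRLac replicate 3. The part of these markers in the results was not tested.

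Kidneys after ischemia-reperfusion carried more mRNA of 8 of the 10 p53 target genes than sham kidneys, and less of Sesn2 and Ccng1. This comparison addresses what ischemia-reperfusion left in place at day 5. The apoptosis gene Pmaip1 differed most, at 5.56 times its sham mean, followed by Phlda3 (4.39 times), Bbc3 (3.68 times), Plk2 (3.06 times) and Cdkn1a (2.84 times). Of all 13594 entries tested, limma with Benjamini-Hochberg adjustment called 75.6% different between IR and sham, 57% higher and 18.6% lower, at an adjusted p under 0.05. A call in this comparison is therefore common, and 10 of 10 called members, 8 higher and 2 lower, stand beside that background. The median log2 difference was 1.19 over the 10 members and 0.29 over all entries. All log2 differences were taken after adding 1 FPKM, so those of genes with low levels come out smaller than the true change.

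The cell cycle genes of the group come first. Cdkn1a encodes p21, an inhibitor of cyclin-dependent kinases and the best known p53 target. Its level was 45, 50.09, 49.74, 37.4 and 30.92 FPKM in the IR libraries, against 18.66, 14.35, 14.01, 17.12 and 10.84 FPKM in the sham libraries. The lowest IR library thus stood above the highest sham library. The log2 difference was 1.45 (SE 0.27, limma adjusted p = 8.8e-05). An exon of Cdkn1a overlaps one of the unnamed transcript AC167363.2 on the opposite strand in the GENCODE M21 annotation, and since the use of strand in counting is not given, reads of the 2 could not be told apart. Plk2, a polo-like kinase of G1 and S phase, had 17.95, 17.06, 17.2, 16.23 and 13.55 FPKM in IR, against 3.97, 5.49, 5.57, 6.32 and 5.45 FPKM in sham. The groups were again apart, with a log2 difference of 1.46 (limma adjusted p = 2.1e-07, SE 0.16). Ccng1, which encodes cyclin G1, a partner of the phosphatase PP2A in the control of Mdm2, did not follow them. Its level was 54.62, 70.2, 59.14, 70.16 and 64.51 FPKM in IR, against 82.73, 71.91, 64.12, 75.35 and 72.16 FPKM in sham. The groups overlapped, and the fall was small, with a log2 difference of -0.20 (limma adjusted p = 0.040, SE 0.085). That call was lost when any 1 of 7 of the 10 IR and sham libraries was left out (adjusted p up to 0.126), namely IR replicates 1, 3 and 5 and sham replicates 1, 2, 4 and 5, and it was lost in TPM (adjusted p = 0.10).

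Cdkn1a rose and Ccng1 fell, and both carry the p53 binding motif, or letters close to it, near a start of transcription. The windows below are the 250 bases before a RefSeq start (GRCm38.p6), each read 5′ to 3′ on the strand of its gene, and are shown because they are the 3 of the members that hold the motif as a pair. A p53 half-site is a motif of 10 letters that reads the same on both strands, and the search asked for 2 half-sites with at most 1 mismatch in all and a spacer of at most 13 bases. Capitals mark the half-sites of such pairs. The Cdkn1a window is chr17:29090729-29090978 on the plus strand, at one of 2 starts listed for the gene. The Ccng1 window is chr11:40755287-40755536 on the minus strand, and the Bax window is chr7:45466899-45467148 on the minus strand.
Cdkn1a: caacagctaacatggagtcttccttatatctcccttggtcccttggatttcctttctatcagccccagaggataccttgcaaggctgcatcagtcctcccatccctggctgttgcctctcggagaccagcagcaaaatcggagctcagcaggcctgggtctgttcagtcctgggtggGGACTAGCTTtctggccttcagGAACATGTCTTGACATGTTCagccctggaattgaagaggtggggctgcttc
Ccng1: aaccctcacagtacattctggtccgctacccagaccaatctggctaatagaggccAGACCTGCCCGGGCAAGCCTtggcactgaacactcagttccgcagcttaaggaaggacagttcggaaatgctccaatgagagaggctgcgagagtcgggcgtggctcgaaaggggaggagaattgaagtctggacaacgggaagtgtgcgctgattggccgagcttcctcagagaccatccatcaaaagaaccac
Bax: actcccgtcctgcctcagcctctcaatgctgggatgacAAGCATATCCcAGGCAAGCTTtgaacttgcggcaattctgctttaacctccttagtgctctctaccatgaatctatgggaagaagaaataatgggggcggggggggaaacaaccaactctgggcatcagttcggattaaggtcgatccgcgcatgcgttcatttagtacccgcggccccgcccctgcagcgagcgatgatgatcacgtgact

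Cdkn1a held 2 overlapping pairs in this window. The first ran 73 to 42 bases before the start with a spacer of 12 bases and 0 mismatches, and the second ran 51 to 32 bases before it with a spacer of 0 and 1 mismatch. The Ccng1 pair lay 195 to 176 bases before the start, and the Bax pair 212 to 192 bases before it, each with 1 mismatch. Of the 8 members with a window in the table, 3 thus held a pair, against 1.02% of 27025 genes. An exact half-site stood in 4 of the 8 (also in Mdm2), against 8.2% of genes. Members are p53 targets by choice, so this is a description of their sequences. A match is not a bound site, and no match says only that the letters were not in this window. The 3 genes with a pair had IR minus sham log2 differences of 1.45, -0.20 and 0.93, so a pair in this window went with a rise in Cdkn1a and Bax and with a small fall in Ccng1.

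The apoptosis genes were higher in IR without exception among the 3 members of this kind. Bax, whose protein forms pores in the outer mitochondrial membrane, was the most abundant member in the injured groups. It stood at 122.29, 131.61, 134.63, 110.77 and 112.09 FPKM in IR, against 60.78, 62.6, 70.35, 64.1 and 59.57 FPKM in sham. The 2 ranges were far apart, and the log2 difference was 0.93 (SE 0.093, limma adjusted p = 8.5e-08). Exons of Bax overlap those of Gm45808 on the same strand in GENCODE M21, so its level holds any reads of that gene. Bbc3 encodes PUMA, a BH3-only protein that frees Bax from its inhibitors. Its values were 14.92, 15.61, 11.72, 11.42 and 11.39 FPKM in IR, against 3.85, 2.58, 4.25, 3.55 and 3.45 FPKM in sham. Pmaip1 encodes NOXA, a BH3-only protein that binds Mcl1. It had 18.7, 17.51, 17.25, 14.94 and 11.78 FPKM in IR, against 2.15, 2.62, 2.93, 3.77 and 2.95 FPKM in sham, the lowest sham mean of the 10 genes. Neither gene's groups overlapped. The log2 differences were 1.63 for Bbc3 (SE 0.18, limma adjusted p = 2.7e-07) and 2.13 for Pmaip1 (SE 0.25, limma adjusted p = 4.4e-07).

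Phlda3 encodes a small protein that competes with the kinase Akt for membrane lipids and so holds Akt back. Its level was 49.48, 56.93, 52.02, 37.03 and 43.14 FPKM in IR, against 11.95, 8.26, 11.61, 11.83 and 10.76 FPKM in sham. All IR libraries stood above all sham libraries, with a log2 difference of 2.03 (limma adjusted p = 9.2e-08, SE 0.20).

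The feedback genes differed by less. Mdm2 had 23.77, 25.9, 26.35, 24.05 and 22.2 FPKM in IR, against 16.59, 17.89, 15.01, 20.07 and 17.65 FPKM in sham. The log2 difference was 0.47 (limma adjusted p = 0.00095, SE 0.11). Trp53inp1, which encodes a stress protein that promotes p53 phosphorylation and autophagy, had 8.48, 9.67, 7.57, 9.39 and 9.09 FPKM in IR, against 6.31, 6.67, 4.17, 7.33 and 6.69 FPKM in sham. Here the log2 difference was 0.46 (limma adjusted p = 0.0048, SE 0.13). The ranges of both genes were apart by a narrow gap. Both differences were near the median of all entries, 0.29, and both calls depended on the scaling. With median-ratio scaling, which put the median of all entries at 0.064, Mdm2 had an adjusted p of 0.063 and Trp53inp1 of 0.11. With quantile normalization, which put that median at -0.061, the adjusted p was 0.10 for Mdm2 and 0.70 for Trp53inp1. Under each of these scalings 6 members were higher and 2 lower, while all entries split into 5300 higher and 4242 lower with median-ratio scaling and 4222 higher and 5294 lower with quantile normalization.

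Sesn2 went the other way. It encodes sestrin 2, a leucine-binding stress protein that restrains the growth kinase complex mTORC1. Its level was 17.28, 19.98, 19.58, 19.63 and 20.69 FPKM in IR, against 39, 33.96, 28.39, 29.75 and 25.85 FPKM in sham. Every IR library lay below every sham library, at 0.619 times the sham mean. The log2 difference was -0.65 (limma adjusted p = 0.00019, SE 0.13). Its relatives Sesn1 and Sesn3, picked out after their values were seen, had log2 differences of 0.48 and 0.67 and were called higher (limma adjusted p = 0.00015 and 0.00017), but not with quantile normalization (0.44 and 0.17). In all, IR and sham did not overlap for 9 of the 10 members, every one but Ccng1, against 63.8% of all entries.

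**Figure D1:**
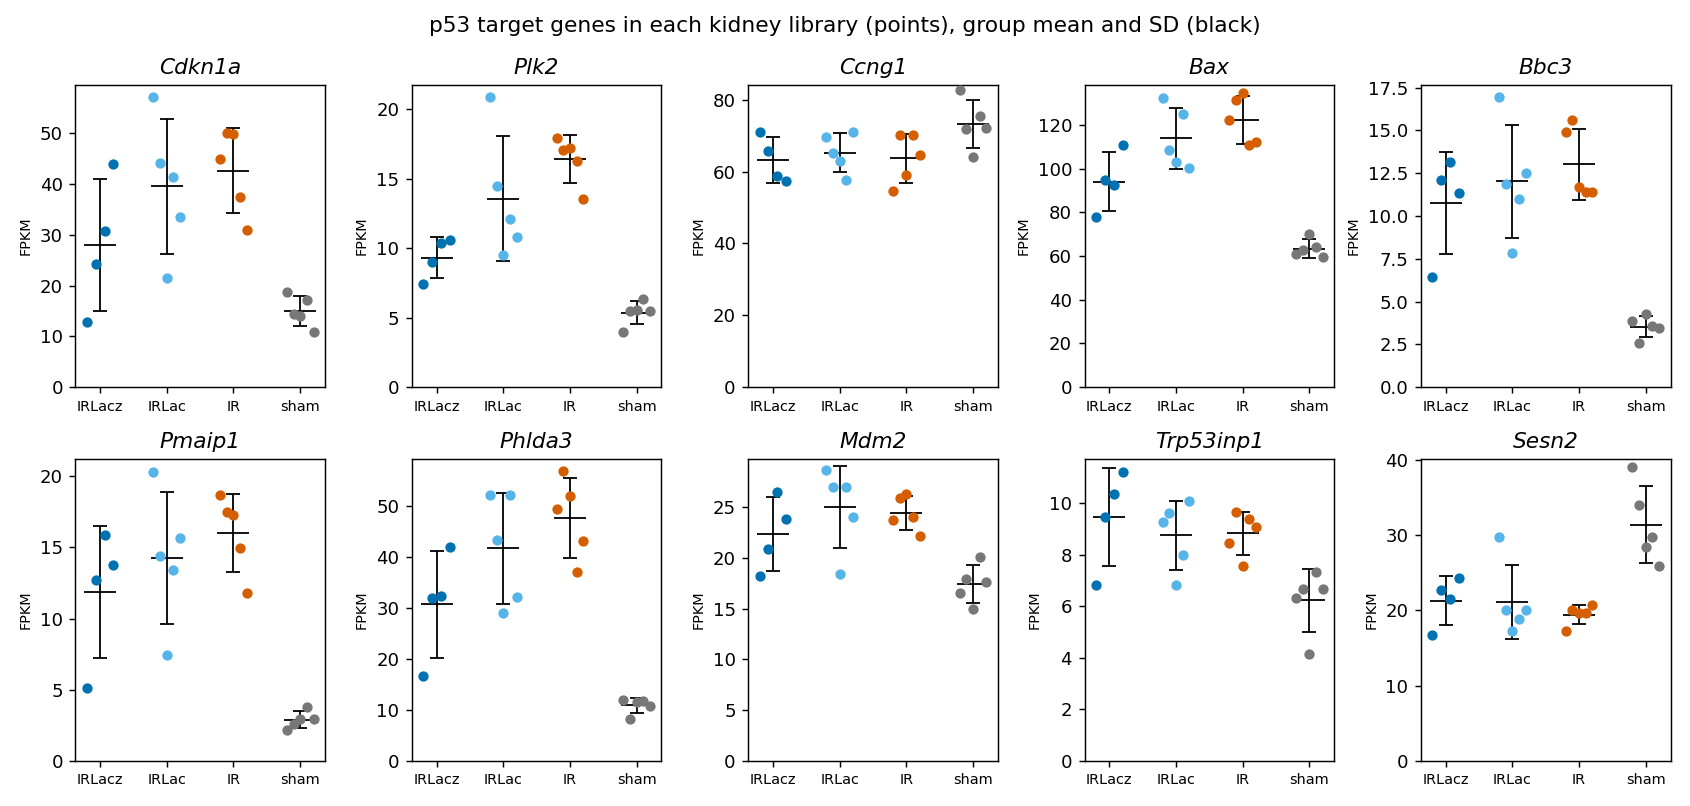
Level in FPKM (vertical axis, from 0) of each p53 target gene in every library (points) by group, with the group mean and SD in black. Bbc3, Pmaip1, Phlda3, Plk2, Cdkn1a and Bax stand high in the injured groups, Sesn2 stands low in them, and IRLacz replicate 1 is the lowest IRLacz point in 9 of 10 panels.

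Kidneys of mice given Lactobacillus casei Zhang before the injury had less Plk2, Bax and Phlda3 mRNA than IR kidneys, and no p53 target gene was called higher. Without both IRLacz replicate 1 and IRLac replicate 3, Plk2 was the 1 member still called. The comparison of IRLacz with IR asked whether this gavage goes with a different response to injury. Plk2 was at 0.568 times its IR mean, Phlda3 at 0.645 times and Bax at 0.77 times. Of all entries, limma called 13.3% different in this comparison, 5.39% higher and 7.92% lower, against 3 of 10 members, all lower. The members' median log2 difference was -0.33, and that of all entries was -0.0041. Without IRLacz replicate 1 these medians were -0.12 and 0.027, and the entries called were 656 higher and 471 lower, against 733 higher and 1076 lower with it. Without IRLac replicate 3 as well, they were 876 higher and 750 lower. The IR libraries are the same ones that were set against sham above, so the comparisons share them.

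Plk2 had 7.4, 8.97, 10.34 and 10.55 FPKM in IRLacz, against the 13.55 to 17.95 FPKM of IR. It was the only member whose 2 groups did not overlap, against 12.2% of all entries. The log2 difference was -0.76 (SE 0.17, 95% confidence interval -1.11 to -0.41, limma adjusted p = 0.010). This call held when each of the 9 libraries of the comparison was left out in turn (adjusted p from 0.0063 to 0.033). Bax had 77.9, 95.04, 92.77 and 110.91 FPKM in IRLacz, and only its highest library reached the IR range of 110.77 to 134.63 FPKM. Its log2 difference was -0.38 (SE 0.099, limma adjusted p = 0.020). It was not called without IR replicate 2, IR replicate 3 or IRLacz replicate 1 (adjusted p from 0.053 to 0.065), or with only the 2 groups in the model (0.057).

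Phlda3 had 16.71, 31.98, 32.36 and 42.04 FPKM in IRLacz, against 37.03 to 56.93 FPKM in IR, and the highest IRLacz library lay inside the IR range. Its log2 difference of -0.67 (SE 0.22, limma adjusted p = 0.048) was just past the threshold. It was not called with a pseudocount of 0.1 FPKM (0.053), no filter on low values (0.070), TPM (0.058) or only the 2 groups in the model (0.099). Nor was it called when IR replicate 1, 2 or 3 or IRLacz replicate 1, 2 or 3 was left out, and without IRLacz replicate 1 the difference was -0.41 (limma adjusted p = 0.16). Cdkn1a spread widely in this group, with 12.9, 24.16, 30.64 and 43.99 FPKM in IRLacz, against 30.92 to 50.09 FPKM in IR. One IRLacz library was below the sham mean and another inside the IR range. The log2 difference of -0.69 (SE 0.28, limma adjusted p = 0.11) was not called. It was called without IRLacz replicate 4 (-0.95, limma adjusted p = 0.031), and was -0.38 without IRLacz replicate 1 (0.35).

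Pmaip1 had 5.15, 12.7, 15.87 and 13.75 FPKM in IRLacz, against 11.78 to 18.7 FPKM in IR, and Bbc3 had 6.46, 12.13, 13.13 and 11.33 FPKM in IRLacz, against 11.39 to 15.61 FPKM in IR. In both genes IRLacz replicate 1 stood well below the rest, which lay in or near the IR range. The log2 differences were -0.49 for Pmaip1 (limma adjusted p = 0.21) and -0.28 for Bbc3 (0.32), and without IRLacz replicate 1 they were -0.16 and -0.076. Mdm2 (18.21 to 26.55 FPKM in IRLacz), Trp53inp1 (6.85 to 11.24), Sesn2 (16.66 to 24.24) and Ccng1 (57.4 to 70.97) overlapped IR, with log2 differences of -0.13, 0.076, 0.11 and -0.010. Their 95% confidence intervals lay between -0.38 and 0.40, so a difference inside the interval of each gene is not excluded.

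Beside the p53 target genes, markers in some of the 9 lists differed between IRLacz and IR. Of the 7 endothelial markers 0 were called. Of 8 T and NK cell markers 1 was higher and 0 lower, and of 6 podocyte markers 2 were higher and 1 lower. Of the macrophage markers 8 of 12 were lower in IRLacz, with summed levels of 563 to 1333 FPKM in IRLacz and 1399 to 1976 FPKM in IR. Of the fibroblast and matrix markers 9 of 10 were lower, with 486 to 824 FPKM in IRLacz and 1094 to 1381 FPKM in IR. Collecting duct markers were higher in 4 of 9, with 587 to 1089 FPKM in IRLacz and 383 to 829.45 FPKM in IR. Thick limb and distal tubule markers were higher in 1 of 8, and their summed levels did not overlap, at 1878 to 3143 FPKM in IRLacz and 995 to 1770 FPKM in IR. Without both IRLacz replicate 1 and IRLac replicate 3, 0 of these 8 were higher, and 8 of the 10 fibroblast and matrix markers were lower. Of the 12 proximal tubule markers 0 were called, with 7364 to 29102 FPKM in IRLacz and 7549 to 16216 FPKM in IR. Of the 12 tubular injury genes 2 were lower, with 4999 to 16513 FPKM in IRLacz and 9904 to 13702 FPKM in IR. Single genes led several of these sums, Kap in the proximal tubule list among them. Spp1 gave 13030 of the 16513 FPKM in IRLacz replicate 4. Umod gave 2342 of the 3143 FPKM of thick limb and distal tubule markers in IRLacz replicate 1. In whole kidney RNA, fewer cells of a type and less RNA per cell cannot be told apart, and the part of these markers in the p53 target gene differences was not tested.

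**Figure D2:**
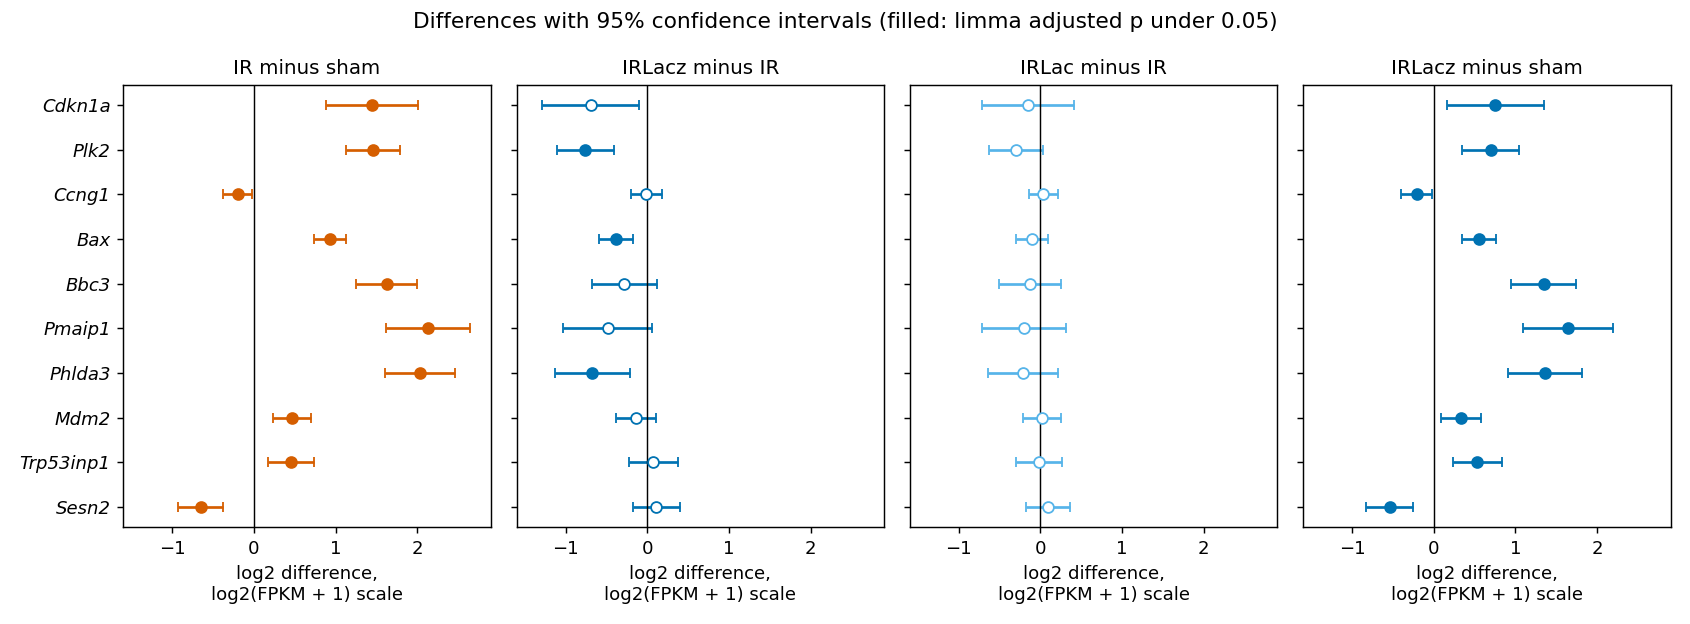
Log2 differences on the log2(FPKM + 1) scale (horizontal axis) with 95% confidence intervals for the 10 genes in 4 comparisons, filled where the limma adjusted p was under 0.05. Filled points number 10 for IR minus sham, 3 for IRLacz minus IR, 0 for IRLac minus IR and 10 for IRLacz minus sham.

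Compared with sham, IRLacz kidneys still differed in these genes. All 10 members were called, 8 higher and 2 lower, where limma called 70.3% of all entries (56.9% higher, 13.5% lower). The count depended on the scaling, with 5 higher and 2 lower under median-ratio scaling and 4 higher and 1 lower under quantile normalization, where Cdkn1a, Mdm2, Trp53inp1, Plk2 and Ccng1 were not called. Along the log2 distance that separates IR means from sham means, the IRLacz means of the 8 genes lay at 47.9 percent (Plk2) to 117 percent (Trp53inp1), with Cdkn1a at 52.1 percent. In Plk2 the log2 difference from sham was 0.70 (SE 0.17, limma adjusted p = 0.0012, and 0.11 with quantile normalization), and 4 of 4 IRLacz libraries were above every sham library. IRLacz and sham did not overlap for 6 of the 10 members, against 55.1% of all entries; the other 4 were Cdkn1a, Mdm2, Trp53inp1 and Ccng1. Cdkn1a, with IRLacz replicate 1 at 12.9 FPKM inside the sham range, had a log2 difference of 0.75 (limma adjusted p = 0.024, SE 0.28). That call was lost without IRLacz replicate 3 or 4 or sham replicate 5 (adjusted p up to 0.12).

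In kidneys of the IRLac group no p53 target gene was called different from IR. Limma called 0 of 10 members, and 0 also at an unadjusted p under 0.05, with 1 of 13594 entries called in all (0.00736%). Plk2 had 20.89, 14.49, 9.51, 12.07 and 10.81 FPKM in IRLac, with 1 library above the IR range and 3 below it. Its log2 difference of -0.30 was the member furthest from 0 (95% confidence interval -0.63 to 0.03, limma adjusted p = 0.90). Cdkn1a had 57.17, 44.05, 21.43, 41.28 and 33.55 FPKM in IRLac, with 1 library above and 1 below the IR range. Its 95% confidence interval ran from -0.71 to 0.41, so a difference inside it is not excluded. Phlda3 (28.99 to 52.23 FPKM), Pmaip1 (7.46 to 20.33 FPKM) and Bbc3 (7.81 to 16.94 FPKM) had IRLac replicate 3 as their lowest library and IRLac replicate 1 as their highest. Bax (100.19 to 132.3 FPKM), Mdm2 (18.38 to 28.72 FPKM), Trp53inp1 (6.84 to 10.11 FPKM), Sesn2 (17.19 to 29.72 FPKM) and Ccng1 (57.55 to 71.02 FPKM) overlapped IR as well. Against sham, IRLac had 8 members higher and 1 lower, where limma called 74.8% of all entries (58% higher, 16.8% lower). Ccng1 had an adjusted p of 0.089.

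Set against each other, the gavage groups did not differ past the threshold in any member. For IRLacz minus IRLac limma called 0 of 10 members and 3 of 13594 entries (0.0221%), and 3 members (Bax, Plk2 and Phlda3) had an unadjusted p under 0.05. Their log2 differences were -0.27, -0.46 and -0.46, with adjusted p of 0.20, 0.20 and 0.31. The Plk2 interval ran from -0.81 to -0.11. A call for IRLacz against IR and none for IRLac against IR is therefore not a shown difference between the bacteria. The number of entries called moved with 1 library, to 490 without IRLac replicate 3.

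**Figure D3:**
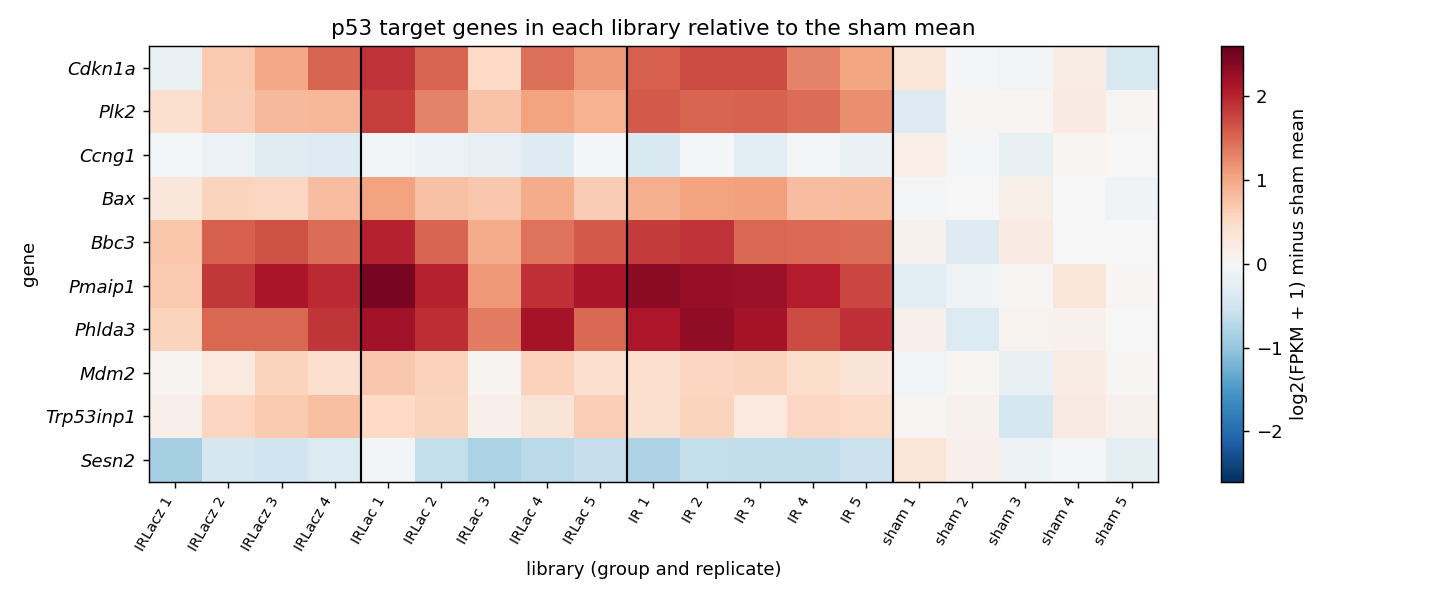
Log2(FPKM + 1) of each gene (rows) in each library (columns, by group) minus the sham mean of that gene, from low (blue) to high (red). Most red rows are paler in columns IRLacz 1 and IRLac 3 than in the rest of their groups, while Sesn2 is bluer there. Cdkn1a is slightly blue in IRLacz 1, and Sesn2 and Ccng1 are red in no injured column.

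Among the 14 libraries of injured kidneys some members were more alike in pattern than others. Likeness was taken as the root-mean-square difference between standardized log2 values, over 13145 named entries, where 0 means the same pattern. The values are a description. The libraries differ in tissue markers, with summed proximal tubule markers, led by Kap, from 6302 to 29102 FPKM, and all genes of a library share its tissue makeup. Bbc3 and Pmaip1, the BH3-only genes, were 0.303 apart, and Pmaip1 was the nearest of all entries to Bbc3. Bax and Phlda3 were 0.305 apart, and Cdkn1a and Phlda3 0.337, against a median of 1.16 between Cdkn1a and all entries. Many entries outside the group were nearer to members than other members were. Among entries ordered by likeness, the nearest member ranked 32 for Bax, 125 for Mdm2 and 355 for Plk2. Ccng1 was far from the rest, with Sesn2 as its nearest member at 1.27. The 3 entries most like Cdkn1a were no members, namely Tmem43 (0.179), Litaf (0.212) and Uhrf1 (0.213), and Phlda3 ranked 127.

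Trp53, the gene for p53 itself, was higher after injury too. It averaged 38.5 ± 8.7 FPKM in IRLacz (SD, n = 4), 48.5 ± 9.25 in IRLac (n = 5), 56.4 ± 5.03 in IR (n = 5) and 18.1 ± 1.51 in sham (n = 5). Every injured library was above every sham library, and the log2 difference for IR minus sham was 1.59 (limma adjusted p = 1.4e-08). For IRLacz minus IR it was -0.56 (limma adjusted p = 0.019), and the call was lost without IR replicate 3 (0.055) or IRLacz replicate 1 (0.057) and with only the 2 groups in the model (0.050). Mdm4, the p53 inhibitor related to Mdm2, averaged 13.9 ± 2.87 FPKM in IRLacz, 12.1 ± 0.724 in IR and 8.05 ± 0.767 in sham. Its log2 difference was 0.54 for IR minus sham (limma adjusted p = 0.00018, and 0.11 with quantile normalization) and 0.16 for IRLacz minus IR (0.34, and 0.045 without IRLacz replicate 1). The list counts that follow stand beside the shares of all entries given above, 57% higher and 18.6% lower for IR minus sham (median log2 difference 0.29), and 5.39% higher and 7.92% lower for IRLacz minus IR. Some genes, such as Ddit4, Cdkn2a and Plk1, stand in several lists, so these counts are not independent of each other. Of the 18 genes listed as p53 and its regulators, 14 were higher and 1 was lower in IR against sham (median log2 difference 0.41). That split depended on the scaling, with 9 higher and 3 lower under median-ratio scaling and 6 higher and 7 lower under quantile normalization. In IRLacz against IR 1 was higher and 2 lower, a share near that of all entries, 13.3%. The other lower one was Cdkn2a, whose products include the Mdm2 inhibitor ARF and a kinase inhibitor, at 0.49 ± 0.16 FPKM in IRLacz and 1.51 ± 0.566 FPKM in IR (-0.73, limma adjusted p = 0.014). Cdkn2a passed the filter on low values only through IR, with highest values of 0.58 FPKM in IRLacz, 0.98 in IRLac and 0.18 in sham. Its call was thus not independent of the filter and is given as a description only.

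Of the other p53 targets, many were higher after injury. In IR against sham 25 of 31 tested were higher and 5 lower, with a median log2 difference of 0.48 beside 0.29 for all entries. With median-ratio scaling 16 were higher and 6 lower, and with quantile normalization 15 and 7. Sfn, which encodes 14-3-3 sigma and holds cells before mitosis, averaged 23.4 ± 6.95 FPKM in IRLacz, 40.8 ± 8.65 in IR and 4.98 ± 0.748 in sham (limma adjusted p = 5.1e-10 for IR minus sham). Dram1, a lysosomal protein gene of autophagy, averaged 5.96 ± 0.402 FPKM in IR and 2.53 ± 0.234 in sham. In IRLacz against IR 2 of the 31 were higher and 4 lower, among them Sfn (-0.79, limma adjusted p = 0.014) and Aen, an apoptosis nuclease gene (-0.50, limma adjusted p = 0.0071). Without both IRLacz replicate 1 and IRLac replicate 3, 2 were higher and 3 lower. Aen averaged 17.4 ± 2.31 FPKM in IRLacz, 25 ± 2.56 in IR and 17.2 ± 1.28 in sham.

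Around the apoptosis members, 8 of 11 tested BCL2 family genes were higher and 1 was lower in IR against sham (5 and 2 with median-ratio scaling, 6 and 3 with quantile normalization). They included the pore former Bak1 (23.7 ± 2.87 FPKM in IR, 5.92 ± 0.667 in sham) and the survival gene Mcl1, whose product NOXA binds (90.6 ± 6.44 FPKM in IR, 44.6 ± 2.98 in sham). In IRLacz against IR 2 were lower, both survival genes, Bcl2l1 (64.6 ± 5.08 FPKM in IRLacz, 89.5 ± 9.78 in IR, limma adjusted p = 0.015) and Mcl1 (72.1 ± 12.3 FPKM in IRLacz, limma adjusted p = 0.035). Bcl2l1 was not called without IRLacz replicate 2 (adjusted p = 0.053). The number lower in this family was 1 in TPM and 1 without both IRLacz replicate 1 and IRLac replicate 3. It was 3 with median-ratio scaling and 2 with quantile normalization.

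Around the cell cycle members, genes of division and some inhibitors of it were higher after injury. Of 7 other inhibitors of cyclin-dependent kinases 5 were higher in IR than in sham and 0 lower, beside 57% higher of all entries. These 5 include Cdkn2a, which passed the filter on low values only through IR. Cdkn2c (p18) was also among the 5, at 15.7 ± 1.24 FPKM in IR and 6.13 ± 0.382 in sham. The 2 not called were Cdkn1b and Cdkn1c (limma adjusted p = 0.54 and 0.46), the closest relatives of Cdkn1a, named here after their values were seen; with median-ratio scaling or quantile normalization Cdkn1b was called lower (0.027 and 0.040). Of 16 G1 and S genes 14 were higher and 1 was lower, and of 16 G2 and M genes 16 were higher, with a median log2 difference of 2.48 (16 of 16 under both other scalings too). Some genes of these lists passed the filter on low values only through the injured groups. Examples are Ccne1, Ccnb1 and Mki67, with highest sham values of 0.31, 0.33 and 0.52 FPKM. Such calls were not independent of the filter. Ccna2, cyclin A2, averaged 9.5 ± 2.08 FPKM in IR and 0.876 ± 0.24 in sham. In IRLacz against IR, 14 of the 16 G2 and M genes were lower and 0 higher, and 14 were also lower without both IRLacz replicate 1 and IRLac replicate 3. Of the 10 p53 target genes these counts were 3 and 1. The mitotic kinase gene Plk1 averaged 3.99 ± 0.669 FPKM in IRLacz, 9.13 ± 2.12 in IR and 0.786 ± 0.268 in sham (limma adjusted p = 0.0061 for IRLacz minus IR). Of the 16 G1 and S genes 2 were higher and 6 lower, such as cyclin D2, Ccnd2 (3.84 ± 0.617 FPKM in IRLacz, 5.88 ± 0.542 in IR, limma adjusted p = 0.0061). Without both IRLacz replicate 1 and IRLac replicate 3, 1 was higher and 5 lower.

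Relatives of Plk2, Phlda3, Sesn2, Ccng1 and Trp53inp1 were listed together, and in IR against sham 6 of 9 were higher and 1 was lower (4 and 1 with quantile normalization). Phlda1, a relative of Phlda3, averaged 8.54 ± 1.04 FPKM in IRLacz, 18.5 ± 3.94 in IR and 6.1 ± 0.685 in sham, with a log2 difference of -1.02 for IRLacz minus IR (limma adjusted p = 0.0035). Sesn2 is also known as a target of Atf4, the factor of the integrated stress response. All 8 genes listed for that response were higher in IR than in sham (7 of 8 with median-ratio scaling or quantile normalization), such as the asparagine synthetase gene Asns (11.8 ± 1.6 FPKM in IR, 2.33 ± 0.522 in sham) and Ddit4 (37.8 ± 5.31 FPKM in IR, 10.7 ± 2.92 in sham), while Sesn2 was lower. In IRLacz against IR 2 of the 8 were lower, among them Atf4 itself (71.4 ± 7.5 FPKM in IRLacz, 96.8 ± 10.2 in IR, limma adjusted p = 0.016, and 0.053 without IR replicate 3). Without both IRLacz replicate 1 and IRLac replicate 3, 1 of the 8 was lower. In IRLac against IR 0 genes of any list were called.

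**Figure D4:**
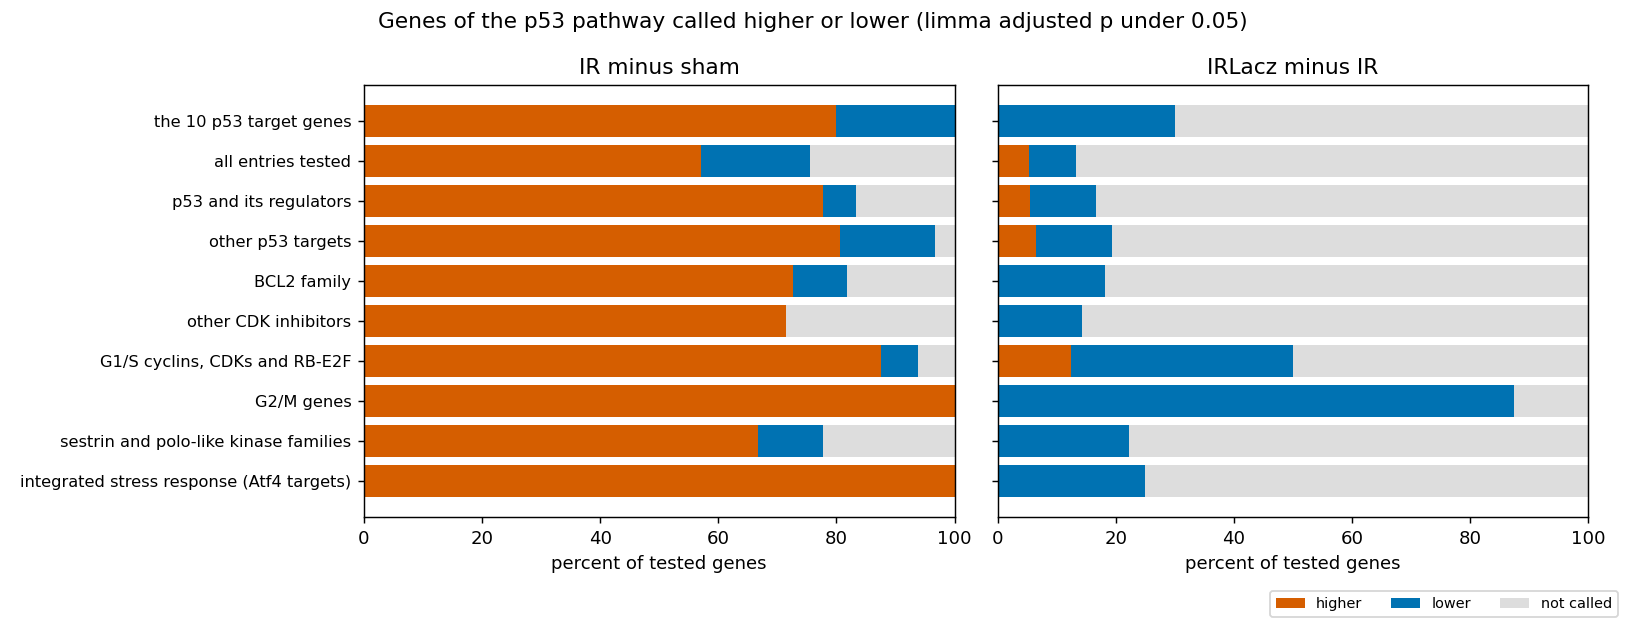
Percent of tested genes (horizontal axis) called higher (orange), lower (blue) or not called (grey) for the 10 p53 target genes, all entries and 8 related lists, in IR minus sham and in IRLacz minus IR. G2 and M genes have the largest lower share in IRLacz minus IR among the bars, 14 of 16, and the p53 target genes have 3 of 10.

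Markers of other cell types also differed between IR and sham beside these genes. All 12 macrophage markers were higher in IR, at 1399 to 1976 FPKM summed in IR and 105 to 141 FPKM in sham, and all 12 proximal tubule markers were lower, at 7549 to 16216 FPKM in IR and 38664 to 43550 FPKM in sham. Of the 12 tubular injury genes 12 were higher, as were 10 of 10 fibroblast and matrix markers and 6 of 8 T and NK cell markers. Thick limb and distal tubule markers were lower in 6 of 8, and collecting duct markers in 6 of 9. Podocyte markers split into 2 higher and 3 lower of 6, and endothelial markers into 3 higher and 4 lower of 7. Some of these counts depended on the scaling. Endothelial markers were 1 higher and 4 lower with median-ratio scaling, and 0 and 4 with quantile normalization. With quantile normalization 3 of 8 T and NK cell markers were higher. Which cells hold the p53 target mRNA was not tested.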

How the data were processed

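Kidney RNA of 19 libraries was sequenced. Groups and replicate numbers come from the sample titles. The authors deposited 1 table of FPKM values, with a column per library. Per the submitters' processing notes the build was mm9 and the tools were HISAT and StringTie 1.0.4, with no roles stated; the sources used here do not give annotation, strand or filters. Low values did not move in whole steps (18.4% of 70617 were whole to within 0.1 step, where 20% would be by position alone), so depth is unknown and no count model was used. Names came from Entrez IDs through a RefSeq GRCm38 table (18238 of 19287 entries matched).

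The test was limma 3.58.1 (R 4.3.3, two-sided, mean-variance trend) on log2(FPKM + 1). One model held all 19 libraries (15 residual degrees of freedom) and the 13594 entries that reached 1 FPKM in 4 or more libraries. Benjamini-Hochberg adjustment ran over all of these in each of 6 comparisons, at a threshold of 0.05. The steps were run on simulated data with independent normal values around the group means. Such data hold no shift shared by a whole library, so that case was not tested. Members, lists and tests were chosen with earlier results of these data known. Named genes are the members, Trp53, Mdm4 and, of each list, genes among the 3 with the smallest adjusted p in IR minus sham and the 2 in IRLacz minus IR; Rpl5, which has near-identical copies, was left out, and Sesn1, Sesn3, Cdkn1b and Cdkn1c were added after their values were seen. Promoter windows and exon overlaps came from RefSeq GRCm38.p6 and GENCODE M21, apart from the authors' build. Alternatives were a pseudocount of 0.1 FPKM, no filter, TPM, median-ratio and quantile scaling, only 2 groups in the model, a replicate block, each library left out and, added after seeing the data, 2 libraries left out together.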

Additional observations from a re-analysis of the deposited data

Results flagged for a closer look

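Sesn2 in IRLac replicate 1 was at 29.72 FPKM, while the other 4 IRLac libraries lay between 17.19 and 20.05 FPKM. The gap to the nearest library was 0.772 of the range of the group, above the critical value of 0.71 for 5 samples. It was 1 of 40 sets of values looked at (10 genes in 4 groups), and chance marks about 1 in 20. The same library was the highest of its group for 7 further members, and lay inside the sham range of 25.85 to 39 FPKM for Sesn2.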

How the results depend on the processing

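For IR minus sham 15 of 510 values recomputed under the alternatives lost their call and 4 changed sign, those of Cdkn1b (-0.20 with median-ratio scaling, -0.20 with quantile normalization) and Cdkn1c (-0.13 and -0.11). For IRLacz minus IR 23 of 340 lost their call, 3 gained one and 7 changed sign. Both totals include values of genes that were not called in the main fit and had no call to lose. The fractions are therefore not rates of loss among called genes. Members called there numbered 1 to 4 when 1 library was left out, 1 with only the 2 groups in the model (885 entries called) and 1 without both IRLac replicate 3 and IRLacz replicate 1; entries called ranged over 606 to 2197 with 1 library left out, and numbered 2251 with quantile normalization. Ccng1 was not called in that comparison, and its log2 difference was 0.0165 with quantile normalization, 0.00079 with the replicate block and -0.0668 to 0.0337 with a library left out; for Trp53inp1 the range was -0.0050 to 0.21. For IRLac minus IR, entries called numbered 0 to 116 with a library left out (116 without IR replicate 5), 0 with the replicate block and 0 without the 2 libraries, and Cdkn1a had -0.301 to 0.0424 with 1 left out and 0.0424 without the 2. For IRLacz minus IRLac, entries numbered 1 to 490, 86 without the 2 libraries, 5 with no filter, and 1 with a pseudocount of 0.1 FPKM, with the 2 groups alone and with the replicate block. For IRLacz minus sham 5 members were called with quantile normalization. The causes were not tested. Same-numbered libraries of 2 groups deviated together with r from -0.394 to 0.23 (6 of 27 over 0.1). For libraries with other numbers r ran from -0.604 to 0.661 (30 of 108 over 0.1). Replicate numbers thus showed no pairing by this measure. It cannot exclude a pairing that leaves no shared deviation over all entries. With the replicate block, members called numbered 10 in IR minus sham, 2 in IRLacz minus IR, and 8 in IRLacz minus sham. Groups of 4 and 5 and an unknown depth limit what could be detected.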
